A study of Mus musculus with 20 samples.

Results

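The miR-181 family was described in mouse serum as 4 mature microRNAs, mmu-miR-181a-5p, mmu-miR-181b-5p, mmu-miR-181c-5p and mmu-miR-181d-5p (mmu for mouse, left out below). They were taken by name from a table of 1915 mature names, with their read counts in 20 small RNA libraries and, for each name, the precursor row with the highest total. All 4 names were found and all 4 were among the 360 miRNAs that passed the filter on low counts. The libraries came from serum of female mice in 4 groups of 5: old dwarf (Ames dwarf, 21 to 22 months), old normal (21 to 22 months), young dwarf (Ames dwarf, 5 to 6 months) and young normal (5 to 6 months). The labels give 1 strain to all groups, Ames dwarf on a heterogeneous genetic background, and do not give the genotype of the normal mice. Ames dwarf mice lack growth hormone, prolactin and thyrotropin, and live long. The series asks whether circulating small RNAs change with age differently in dwarf and normal mice. The labels do not say whether the libraries of a group came from separate mice, so p-values measure the spread between these libraries.

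MicroRNAs of the miR-181 family repress messenger RNAs that pair with their seed, the bases 2 to 8 from the 5′ end. In mouse thymocytes miR-181a raises the sensitivity of the T-cell receptor by repressing phosphatases, and miR-181 was among the earliest miRNAs linked to B-cell development in mouse. The family is also abundant in brain, and miR-181b restrains NF-kB signalling in endothelium. Serum holds RNA released by many cells, so more cells of a type, more release and more RNA per cell cannot be told apart.

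The mature sequences are shown because they share a seed and differ behind it, which sets how well reads of the members can be separated. They are RefSeq entries on GRCm38.p6, written 5′ to 3′ with the seed in capitals.
miR-181a-5p: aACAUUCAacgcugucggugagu
miR-181b-5p: aACAUUCAuugcugucgguggguu
miR-181c-5p: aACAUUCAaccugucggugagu
miR-181d-5p: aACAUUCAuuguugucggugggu
All 4 carried the same seed, ACAUUCA. With positions counted from the 5′ end of the first-named member, miR-181a-5p differed from miR-181b-5p by A9U, C10U, A21G and 1 base at the 3′ end. It differed from miR-181c-5p by 1 base that miR-181c-5p lacks, with 0 substitutions. miR-181b-5p and miR-181d-5p differed by C12U and by 1 base at the 3′ end. Whether reads of either close pair were counted under the other name was not tested, and the mismatches allowed in counting are not given in the sources used here.

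The 4 names come from 6 precursors in 3 pairs (GENCODE M21, GRCm38). Mir181a-1 (chr1:137966455-137966541) and Mir181b-1 (chr1:137966639-137966718) lie 97 bases apart on the plus strand, within an exon of the noncoding gene A430106G13Rik and an intron of Gm4258. Mir181a-2 (chr2:38852735-38852810) and Mir181b-2 (chr2:38853830-38853918) lie 1019 bases apart on the plus strand, opposite an intron of Nr6a1, and Mir181b-2 also lies opposite an exon of Gm44144. Mir181c (chr8:84178873-84178961) and Mir181d (chr8:84178716-84178787) lie 85 bases apart on the minus strand, in an intron of Nanos3 on the same strand. miR-181a-5p reads cannot be assigned to chromosome 1 or 2, since its 2 rows differed by at most 1 read in any library. The 2 rows of miR-181b-5p held nearly the same reads too, with the Mir181b-1 row at 90.3 to 99.1% of the Mir181b-2 row.

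The family took 0.392% of all miRNA reads, and between 0.248 and 0.599% in single libraries. Its share of miRNA reads was 0.355 ± 0.037% in old dwarf, 0.439 ± 0.111% in old normal, 0.461 ± 0.103% in young dwarf libraries and 0.375 ± 0.0999% in young normal libraries (SD, n = 5 each), so before TMM scaling the young dwarf mean was the highest. Libraries held 1343137 to 4710263 miRNA reads. Each member had at least 158 reads in every library. miR-181a-5p held 55.3% of the family's reads over all libraries, miR-181c-5p 31.1%, miR-181d-5p 9.06% and miR-181b-5p 4.58%. By mean level they ranked 31, 44, 80 and 104 among the 360 miRNAs tested. Levels below are CPM, read counts relative to the library total and scaled with TMM factors, which correct library sizes for a few dominant miRNAs.

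mmu-miR-181a-5p, the main family member of developing T cells, stood at 1783, 2370.4, 2112, 1891 and 2165 CPM in old dwarf libraries 1 to 5, against 5088, 3587, 1720.1, 2725 and 2549 CPM in old normal libraries 1 to 5. It stood at 2432, 2578, 1479, 1709 and 2178 CPM in young dwarf libraries, against 2166, 1893, 1985, 1469 and 2129 CPM in young normal libraries. Of the old normal libraries, 4 lay above all old dwarf and all young normal libraries, while old normal library 3 lay below every old dwarf library, so the groups overlapped. Its group means were 2064 ± 232 CPM in old dwarf, 3134 ± 1278 CPM in old normal, 2075 ± 469 CPM in young dwarf mice and 1928 ± 279 CPM in young normal mice (SD, n = 5 each).

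mmu-miR-181b-5p, the member studied in endothelium, stood at 119, 186, 166, 108 and 111 CPM in old dwarf libraries 1 to 5, against 308, 288, 179, 309 and 370.05 CPM in old normal libraries 1 to 5. Old normal library 3, at 179 CPM, lay below old dwarf library 2, and the other 4 old normal libraries lay above every old dwarf library. It stood at 234, 153, 79.8, 97.3 and 117 CPM in young dwarf libraries, against 394, 127, 107, 205 and 134 CPM in young normal libraries. Young normal library 1 held the highest level of the 20 libraries. The group means were 138 ± 35.7 CPM in old dwarf, 291 ± 69.7 CPM in old normal, 136 ± 60.95 CPM in young dwarf mice and 193 ± 118 CPM in young normal mice (SD, n = 5 each).

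mmu-miR-181c-5p, the abundant member of the chromosome 8 pair, stood at 958, 1822, 1481, 1225 and 935 CPM in old dwarf libraries 1 to 5, against 897, 1221, 1353, 1693 and 2182 CPM in old normal libraries 1 to 5. It stood at 2010.3, 1173, 718, 1175 and 1033 CPM in young dwarf libraries, against 1661, 725, 913, 1281 and 674 CPM in young normal libraries. All 4 groups overlapped, and old normal library 1, the highest for miR-181a-5p, was the lowest old normal library for miR-181c-5p. Its means were 1284 ± 374 CPM in old dwarf, 1469 ± 490.1 CPM in old normal, 1222 ± 478 CPM in young dwarf mice and 1051 ± 416 CPM in young normal mice (SD, n = 5 each).

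mmu-miR-181d-5p, its neighbour on chromosome 8, varied most. It stood at 178, 588, 505, 173 and 127 CPM in old dwarf libraries 1 to 5, against 299.7, 694, 434, 666 and 817 CPM in old normal libraries 1 to 5. It stood at 704, 253, 105, 227 and 210.4 CPM in young dwarf libraries, against 713, 167, 166, 398 and 124 CPM in young normal libraries. In 3 groups some libraries lay far above the rest, 2 of 5 in old dwarf, 1 in young dwarf and 2 in young normal mice, while 4 of 5 old normal libraries were at 434 CPM or higher. Its means were 314 ± 215 CPM in old dwarf mice, 582 ± 210 CPM in old normal mice, 300.002 ± 233 CPM in young dwarf mice and 314 ± 248 CPM in young normal mice (SD, n = 5 each). Over the 20 libraries the highest level was 7.75 times the lowest for miR-181d-5p, 4.93 times for miR-181b-5p, 3.46 times for miR-181a-5p and 3.24 times for miR-181c-5p.

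**Figure D1:**
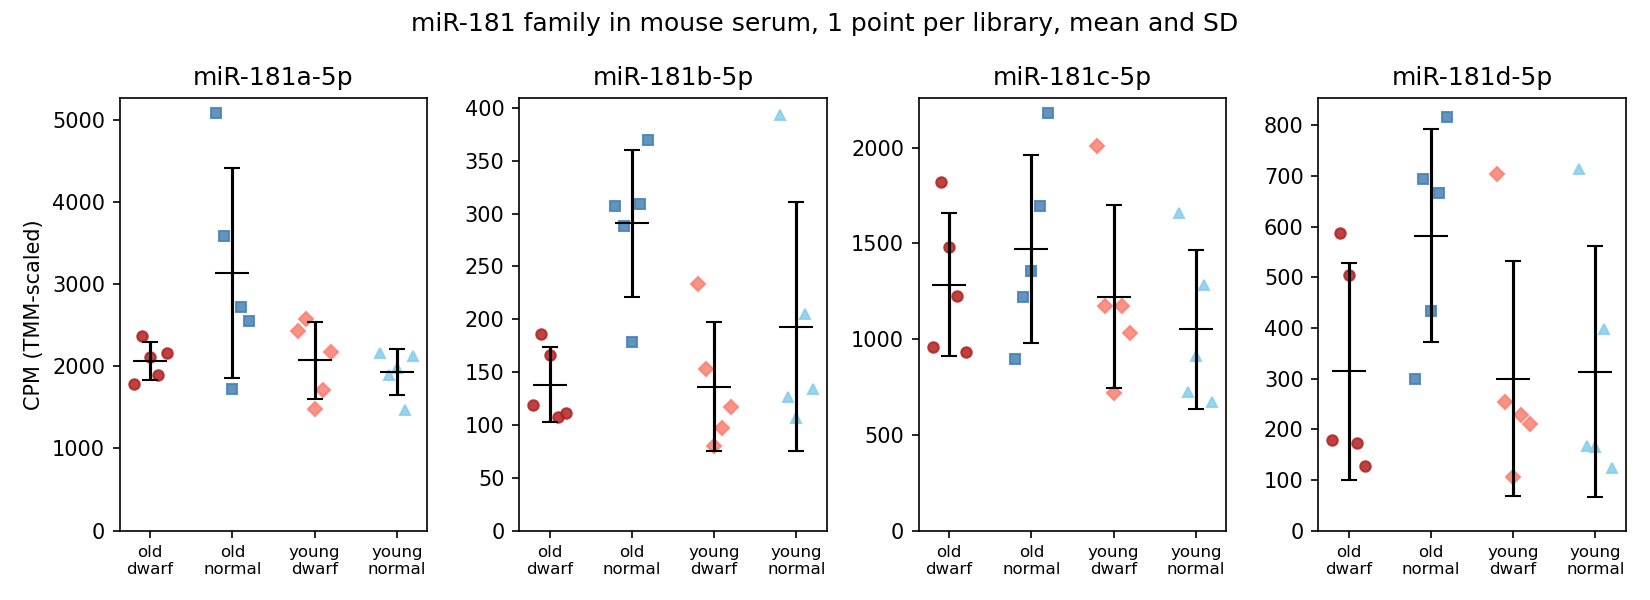
Levels of the 4 family members in CPM (vertical axes from 0), 1 point per library in old dwarf, old normal, young dwarf and young normal serum, with the mean and SD of 5 libraries. For miR-181b-5p, 4 of the 5 old normal libraries lie above all old dwarf libraries (108 to 186 CPM), and for miR-181a-5p old normal library 1 reaches 5088 CPM.

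In old dwarf against old normal serum all 4 members had a fold change below 0 on the log2 scale (miR-181c-5p lay at 0.019 with unscaled library totals and at 0.045 with the haemolysis index, a red-cell measure, in the model), and 1 of them, miR-181b-5p, fell. It was lower by log2 -1.07 ± 0.35 (SE, 0.475 times the old normal level, edgeR quasi-likelihood test, adjusted p 0.0314). In this comparison 10.3% of the 360 miRNAs were called lower, against 1 of 4 members, and the median of all tested miRNAs was log2 -0.06. miR-181a-5p had log2 -0.60 ± 0.24 (adjusted p 0.0611), miR-181d-5p log2 -0.89 ± 0.55 (0.217) and miR-181c-5p log2 -0.19 ± 0.31 (0.642). The 95% intervals of the members not called ran from log2 -1.09 to -0.11 for miR-181a-5p, -2.04 to 0.26 for miR-181d-5p and -0.83 to 0.45 for miR-181c-5p. The call of miR-181b-5p was lost without old dwarf libraries 1, 4 or 5 (log2 -1.02, -0.97 and -0.98, adjusted p 0.0772, 0.108 and 0.103). It was also lost without old normal libraries 1, 2, 4 or 5 (log2 -1.04, -1.07, -1.02 and -0.97, adjusted p 0.0594, 0.0590, 0.0710 and 0.0690) or young dwarf library 2 (-1.05, 0.0576), and with no filter on low counts (-1.03, 0.0521). With the haemolysis index in the model it was log2 -0.49 ± 0.36 (adjusted p 0.514), and 0 miRNAs were called between the old groups. The index did not overlap between the old groups (4.90 to 6.09 in old dwarf, 3.13 to 4.83 in old normal libraries). Index and group can therefore not be told apart there. miR-181b-5p counted together with miR-181d-5p as 1 miRNA, an alternative chosen after the values were seen, was lower by log2 -0.98 ± 0.50 (adjusted p 0.135). In that fit miR-181a-5p passed at log2 -0.63 (0.0492). miR-181a-5p also passed without old dwarf library 2 (log2 -0.65, 0.0493) or old normal library 3 (log2 -0.75, 0.0220).

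In old normal against young normal serum all 4 members had a fold change above 0 (miR-181d-5p lay at log2 -0.014 with the haemolysis index in the model), and miR-181a-5p rose. It was higher by log2 0.70 ± 0.24 (SE, 1.63 times the young normal level, edgeR adjusted p 0.0487), where 5% of all miRNAs were called higher and the median of all tested was log2 0.00. miR-181d-5p had log2 0.89 ± 0.55 (adjusted p 0.225), miR-181b-5p log2 0.59 ± 0.35 (0.207) and miR-181c-5p log2 0.48 ± 0.31 (0.236). The value of miR-181a-5p rested most on old normal library 1, without which it was log2 0.45 (adjusted p 0.152). The call was lost in 15 of the 20 fits that left out 1 library. Without old normal libraries 2 or 4 it was log2 0.65 and 0.68 (adjusted p 0.108 and 0.0620), and without young normal libraries 2, 3, 4 or 5 log2 0.68, 0.70, 0.62 and 0.73 (0.0875, 0.0941, 0.0713 and 0.0831). Without old dwarf libraries 1 to 5 it was log2 0.69, 0.70, 0.70, 0.65 and 0.67 (0.0560, 0.0537, 0.0541, 0.0629 and 0.0618), and without young dwarf libraries 2, 4 or 5 log2 0.64, 0.70 and 0.70 (0.0721, 0.0571 and 0.0613). It also missed the threshold with unscaled library totals (log2 0.23, adjusted p 0.570) and with only the 2 normal groups in the fit (log2 0.48, 0.257). The same held with the haemolysis index in the model (log2 0.49, 0.423), no filter on low counts (log2 0.59, 0.232), RLE size factors (0.64, 0.0632), the replicate number as a block (0.65, 0.0586), identical names counted once (0.70, 0.0544) and precursor rows summed (0.70, 0.0532). miR-181b-5p rose only in the fit without young normal library 1 (log2 1.01, adjusted p 0.0271). This comparison and the one between old groups share the old normal libraries.

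In young dwarf against young normal serum 0 of 4 members were called, where 0% of all miRNAs were called by edgeR, 28 of 360 (7.78%) had an unadjusted p under 0.05 and DESeq2 called 6. The fold changes were log2 0.11 ± 0.23 for miR-181a-5p, -0.50 ± 0.35 for miR-181b-5p, 0.22 ± 0.31 for miR-181c-5p and -0.06 ± 0.55 for miR-181d-5p (edgeR adjusted p 0.940, 0.670, 0.849 and 0.981). No member had an unadjusted p under 0.05, the smallest being 0.164 for miR-181b-5p. The 95% intervals reached from log2 -0.38 to 0.60 for miR-181a-5p and from -1.21 to 1.08 for miR-181d-5p.

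In old dwarf against young dwarf serum 0 of 4 members were called, where 0.556% of all miRNAs were called. The fold changes were log2 -0.01 ± 0.23 for miR-181a-5p, 0.02 ± 0.35 for miR-181b-5p, 0.07 ± 0.31 for miR-181c-5p and 0.07 ± 0.55 for miR-181d-5p (edgeR adjusted p 0.997 for each). The signs were not stable, and with unscaled library totals the 4 were log2 -0.42, -0.37, -0.31 and -0.35 in the same order, where the median of all miRNAs was log2 -0.38. The 95% interval of miR-181a-5p ran from log2 -0.50 to 0.48.

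The age effect in dwarf mice minus that in normal mice was below 0 for all 4 members (miR-181d-5p lay at log2 0.026 with the haemolysis index in the model), and none passed the test of this difference, where 0.556% of all miRNAs were called. It was log2 -0.71 ± 0.33 for miR-181a-5p (edgeR unadjusted p 0.0457, adjusted p 0.305), -0.57 ± 0.49 for miR-181b-5p (adjusted p 0.553), -0.41 ± 0.43 for miR-181c-5p (0.615) and -0.82 ± 0.78 for miR-181d-5p (0.577). miR-181a-5p was 1 of 57 miRNAs (15.8%) with an unadjusted p under 0.05 here, and the other members were not among them.

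**Figure D2:**
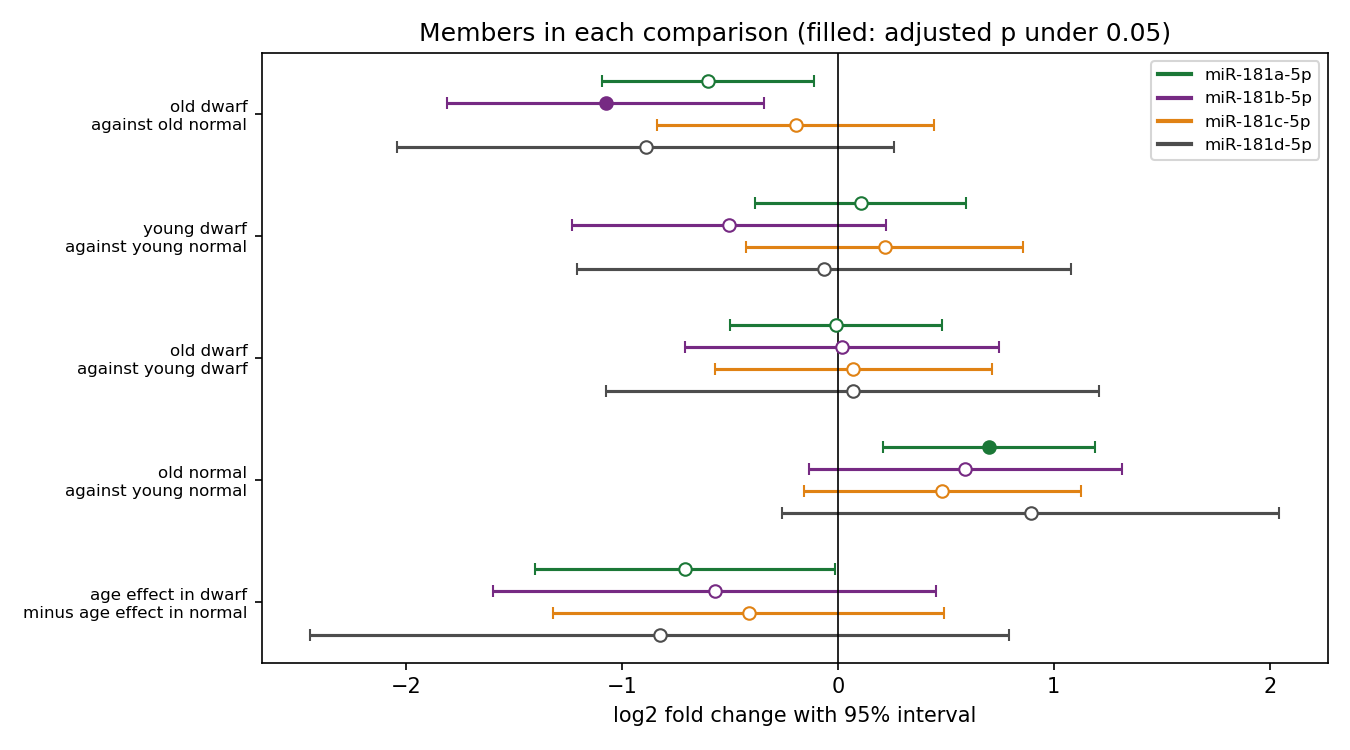
Log2 fold changes of the 4 members (horizontal axis) with 95% intervals in the 5 comparisons, from the edgeR fit over 360 miRNAs, with filled points for an adjusted p under 0.05. The filled points are miR-181b-5p in old dwarf against old normal serum (log2 -1.07) and miR-181a-5p in old normal against young normal serum (log2 0.70).

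The make-up of the family was also compared, since a share within a library does not depend on scaling between libraries. miR-181b-5p took 3.17 to 3.92% of family reads in old dwarf libraries and 4.67 to 6.25% in old normal libraries, so these groups did not overlap. Between the same groups, 12.5% of the 360 miRNAs did not overlap in CPM, a measure in which miR-181b-5p itself overlapped. No such percentage was made for shares. The mean share was 3.61 ± 0.34% in old dwarf and 5.30 ± 0.67% in old normal mice (SD, n = 5 each), a difference of -1.68 percentage points. The 2-sided exact permutation p was 0.00794, the smallest that 5 against 5 libraries allow, and 0.127 after Benjamini-Hochberg adjustment over 16 comparisons, with the share as a measure chosen after the values were seen. In young mice the share was 3.54 ± 0.50% in dwarf and 5.23 ± 1.82% in normal serum (exact p 0.0397, adjusted p 0.317). The shares of the other 3 members had an adjusted exact p of 0.984 in every comparison.

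Ratios to miR-181a-5p, a planned measure, did not pass in any of 12 comparisons. The log2 ratio of miR-181b-5p to miR-181a-5p was -3.93 ± 0.27 in old dwarf and -3.37 ± 0.48 in old normal libraries (SD, n = 5 each, exact permutation p 0.0556, adjusted p 0.667). The other 11 ratios had an adjusted p of 0.921. With miR-181d-5p the log2 ratio was -2.98 ± 0.91 in old dwarf and -2.42 ± 0.96 in old normal libraries (exact p 0.373).

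**Figure D3:**
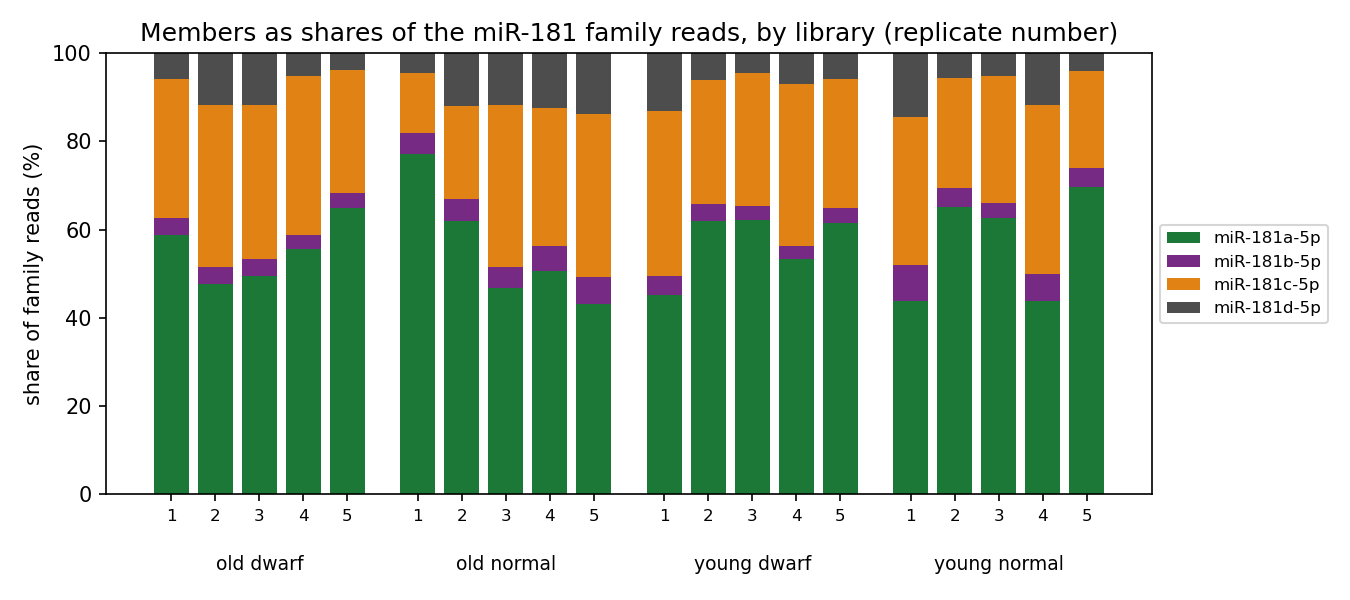
Shares of the family's reads (vertical axis, percent) held by each member, 1 bar per library, by group and replicate number. miR-181a-5p reaches 77.2% in old normal library 1, and miR-181b-5p holds 3.17 to 3.92% in old dwarf against 4.67 to 6.25% in old normal libraries.

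Across the 20 libraries the chromosome 8 neighbours miR-181c-5p and miR-181d-5p moved together. Their log2 CPM had r = 0.89 and rho = 0.88 (permutation p 1e-05 for both, the smallest that 100000 resamples can give, adjusted p 3.00e-05 over 6 pairs). It was 0.93 with group means removed and 0.86 without old normal library 5 and young normal library 5, the farthest from the median of miR-181c-5p. miR-181b-5p and miR-181d-5p, which come from different chromosomes and differ by 1 substitution, had r = 0.86 and rho = 0.86 (the same p-values). That pair had r = 0.86 with group means removed and 0.83 without young normal library 1 and old normal library 5. All these points share depth and scaling, and for this pair possibly reads. miR-181d-5p had a higher r with miR-128-3p, from outside the family (0.97), than with miR-181c-5p or miR-181b-5p. The count of miR-181b-5p was 0.316 to 1.08 times that of miR-181d-5p. The count of miR-181c-5p was 1.76 to 7.35 times that of miR-181d-5p, so neither ratio was fixed.

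The values of r between miR-181a-5p and the chromosome 8 pair were lower. It had r = 0.17 and rho = 0.27 with miR-181c-5p (permutation p 0.488 and 0.254, the same after adjustment), and r = -0.04 with group means removed. Without old normal libraries 1 and 2 that r was 0.51, so the low value rested on those libraries. With miR-181d-5p it had r = 0.39 and rho = 0.51 (p 0.0893 and 0.0240, adjusted p 0.107 and 0.0288), 0.13 with group means removed and 0.48 without the same 2 libraries. With miR-181b-5p, which shares both of its clusters, it had r = 0.61 and rho = 0.62 (p 0.00275 and 0.00433, adjusted p 0.00412 and 0.00688). That r was 0.44 with group means removed and 0.54 without the same libraries. For miR-181b-5p and miR-181c-5p r was 0.66 and rho 0.62 (p 0.00221 and 0.00459, adjusted p 0.00412 and 0.00688), 0.77 with group means removed and 0.54 without young normal library 1 and old normal library 5.

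**Figure D4:**
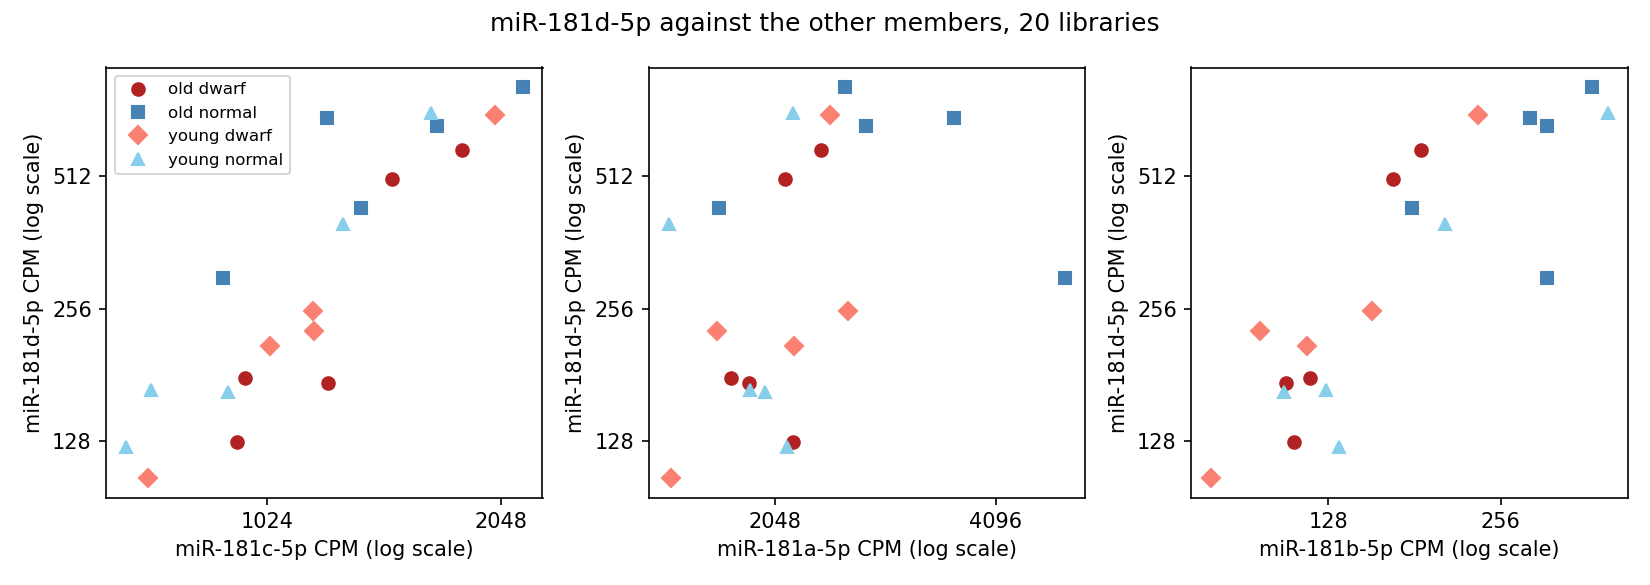
miR-181d-5p CPM (vertical axes, log scale) against miR-181c-5p, miR-181a-5p and miR-181b-5p CPM (horizontal axes, log scale), 1 point per library and 1 marker per group. The points follow a line with miR-181c-5p (r = 0.89) and miR-181b-5p (r = 0.86) and scatter with miR-181a-5p (r = 0.39), where old normal library 1 lies farthest to the right.

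The 3p strands, the opposite arms of the hairpins, differ between precursors of 1 name and so carry the locus that the 5p reads do not. They are shown for the chromosome 1 and 2 copies of miR-181a and for miR-181c, with bases 2 to 8 in capitals (RefSeq, GRCm38.p6).
miR-181a-1-3p: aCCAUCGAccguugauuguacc
miR-181a-2-3p: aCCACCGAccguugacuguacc
miR-181c-3p: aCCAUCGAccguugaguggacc
Counted from the 5′ end, miR-181a-1-3p differs from miR-181a-2-3p by U5C and U16C, and from miR-181c-3p by U16G and U19G. Over all libraries miR-181a-1-3p had 591 reads and was found in all 20, while miR-181a-2-3p had 0 reads. Set against a floor of 3 reads over all libraries, miR-181a-1-3p was at least 197-fold higher. The floor covers counting error only, and a 3p count does not say which share of miR-181a-5p reads came from either chromosome.

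miR-181c-3p was the most abundant 3p strand, with 2612 reads. It stood at 31.8, 80.3, 62.5, 32.8 and 30.8 CPM in old dwarf libraries 1 to 5, against 51.8, 83.3, 66.4, 99.2 and 108 CPM in old normal libraries 1 to 5. It stood at 105, 58.4, 16.6, 38.3 and 48.7 CPM in young dwarf libraries, against 81.1, 32.2, 29.6, 48.1 and 22.2 CPM in young normal libraries. The groups overlapped, with old normal library 5 the highest and young dwarf library 3 the lowest of the 20. Its reads were 2.32 to 6.82% of miR-181c-5p reads, while miR-181a-1-3p reads were 0.375 to 0.906% of miR-181a-5p reads. The 2 arms of miR-181c had r = 0.89 and rho = 0.86 in log2 CPM (permutation p 1e-05 for both, adjusted p 2.00e-05 over 2 pairs chosen after the values were seen). That r was 0.91 with group means removed and 0.85 without young dwarf library 3 and young normal library 5. miR-181a-1-3p had r = 0.70 and rho = 0.59 with miR-181a-5p (permutation p 0.00094 and 0.00729), whose reads cannot be assigned to a single precursor. That r was 0.67 with group means removed. It was 0.36 without old normal library 1 and young normal library 4, so that relation rested on those libraries.

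The edgeR test covered 2 of the 6 3p strands, and neither was called in any comparison. In old dwarf against old normal serum miR-181c-3p had log2 -0.78 ± 0.43 (adjusted p 0.169) and miR-181a-1-3p log2 -0.33 ± 0.28 (0.372). In old normal against young normal serum they had log2 0.94 ± 0.43 (0.118) and 0.40 ± 0.28 (0.282). The other 4 were below the filter: miR-181b-1-3p had 25 reads in 11 libraries, miR-181d-3p 13 reads in 8, miR-181b-2-3p 4 reads in 3 and miR-181a-2-3p 0.

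The miRNAs outside the family whose levels were most like those of a member differed between members. By Pearson r of log2 CPM over the 20 libraries, among 256 miRNAs with a mean of at least 10 CPM, miR-181a-5p was most like miR-150-5p (r = 0.82), a miRNA of mature lymphocytes, then miR-1249-3p (0.80) and miR-155-5p (0.76), a miRNA of activated lymphocytes. miR-181d-5p was most like miR-128-3p (0.97), a miRNA abundant in brain, then miR-130b-5p (0.96) and miR-351-5p (0.96). miR-181b-5p was most like miR-351-5p (0.93), miR-674-3p (0.92) and let-7d-3p (0.91), and miR-181c-5p like miR-27a-5p (0.84), miR-301a-3p (0.83) and miR-879-5p (0.83). With group means removed the leading names were miR-150-5p (0.72), miR-200a-3p (0.69) and miR-1249-3p (0.68) for miR-181a-5p, and miR-128-3p (0.98), miR-328-3p (0.97) and miR-222-3p (0.97) for miR-181d-5p. They were miR-27a-5p (0.90), miR-351-5p (0.89) and miR-130b-5p (0.88) for miR-181b-5p, and miR-301a-3p (0.89), miR-222-3p (0.88) and miR-151-5p (0.88) for miR-181c-5p. These are descriptions over libraries that share depth and scaling. Old normal library 1, the highest for miR-181a-5p, was also the highest for miR-200a-3p (628 CPM, next 161 CPM in young normal library 2). The same library was the highest for miR-1249-3p (62.4 CPM, next 37.6 CPM in old normal library 2). For miR-155-5p it held 51.3 CPM, with 18.5 CPM next in old normal library 4. These values of r were not repeated without that library.

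miR-150-5p stood at 624 to 1367 CPM in old dwarf libraries, against 4340, 4740.5, 1418, 2516 and 1504 CPM in old normal libraries 1 to 5. Its 2 highest libraries, old normal 1 and 2, were also the 2 highest for miR-181a-5p. miR-128-3p stood at 932, 8673, 5751, 807 and 735 CPM in old dwarf libraries 1 to 5, against 4642, 14028, 8350, 11260 and 12256 CPM in old normal libraries. Old dwarf libraries 2 and 3 were the high ones for miR-128-3p and for miR-181d-5p alike. In young dwarf mice the high library was 1 for both (8051 CPM of miR-128-3p), and in young normal mice libraries 1 and 4 (11800 and 5904 CPM).

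Other miRNAs, on lists of cell types, were read in the same comparisons, and the lists did not all move the same way. Each family member had its highest mean CPM in the old normal group. The lists were written with earlier results of these data known, so their counts and medians are descriptions and no independent support. Of 7 tested miRNAs on a list of lymphocyte miRNAs, 6 fell in the old dwarf group against the old normal group (median log2 -1.63). Over all 360 miRNAs the median was log2 -0.06, with 10.3% called lower and 26.4% called in either direction. The 4 of the lymphocyte list with the smallest p were miR-342-3p (log2 -1.49, edgeR adjusted p 0.00479), miR-150-5p (log2 -1.63, 0.00601), miR-5107-5p (log2 -3.05, 0.00683) and miR-150-3p (log2 -3.04, 0.0076). miR-5107-5p and miR-150-3p were low in old dwarf libraries, at 0 to 6.2 and 0 to 9.01 CPM. In old normal libraries they stood at 4.81 to 77.4 and 10.6 to 81.5 CPM. The same 6 of the list rose in old normal against young normal serum (list median log2 1.87), where 5% of all were called higher. Among them were miR-342-3p at log2 1.87 and miR-155-5p at log2 1.75 (edgeR adjusted p 0.00527 and 0.0115). The other tested miRNA of the list, miR-146b-5p, lay the other way in both comparisons (log2 0.78 and -0.54, adjusted p 0.0741 and 0.211). The summed lymphocyte list ran from 840 to 1594 CPM in old dwarf, 1784 to 6696 CPM in old normal, 852 to 1556 CPM in young dwarf libraries and 763 to 2030.3 CPM in young normal libraries, with no listed miRNA at 0 in every library. Its part in the values of miR-181a-5p and miR-181b-5p was not tested.

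Of 8 myeloid and platelet miRNAs, 3 fell in the old dwarf group against the old normal group, miR-191-5p, miR-27a-3p and miR-223-5p (log2 -1.10, -0.59 and -1.08, edgeR adjusted p 0.0337, 0.0418 and 0.0459), and the list median was log2 -0.59, where 10.3% of all miRNAs were called lower. miR-191-5p rose in old normal against young normal serum (log2 1.10, adjusted p 0.0465), 1 of 8, where 5% of all were called higher. Between the old groups 7 of the 8 lay below 0 and miR-24-3p lay above (log2 0.35, edgeR adjusted p 0.309). Between the normal groups 6 lay above 0, while miR-24-3p and miR-142a-3p lay below (log2 -0.23 and -0.21, adjusted p 0.516 and 0.429). The summed level of the 8 was 22860.1 to 61358 CPM in old dwarf and 57943 to 79304 CPM in old normal libraries. Of 6 erythroid miRNAs, 0 were called between the old groups. There 4 lay above 0, while miR-486a-5p and miR-486a-3p lay below (log2 -0.32 and -0.50). miR-451a fell in old normal against young normal serum (log2 -0.99, adjusted p 0.0198), 1 of 6, where 10.6% of all were called lower. Only miR-486a-5p lay above 0 in that comparison (log2 0.59, edgeR adjusted p 0.147). Median summed levels of the list were 440706 CPM (old normal), 356454 (old dwarf), 357060 (young normal) and 248677 (young dwarf), and the ranges overlapped. Most of each sum was miR-486a-5p, with means of 392032, 313632, 260831 and 192990 CPM in the same order. The sum therefore does not show the miRNAs of the list that lay the other way. Of those, miR-451a had its lowest mean in old normal libraries (18409 CPM, against 30615 CPM in old dwarf). The haemolysis index, the log2 ratio of the red-cell miRNA miR-451a to miR-23a-3p, averaged 5.38 ± 0.44 in old dwarf libraries, 4.30 ± 0.70 in old normal libraries, 5.40 ± 0.43 in young dwarf libraries and 5.45 ± 0.61 in young normal libraries (SD, n = 5 each). With this index in the model 1 miRNA was called between the normal groups. miR-181d-5p between the old groups was then log2 -0.036, and miR-181b-5p between the normal groups log2 0.035. The index did not overlap between the old groups, so index and group cannot be told apart there.

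Both endothelial miRNAs, miR-126a-3p and miR-126a-5p, were uncalled in all 5 comparisons, with a median of log2 0.12 in old dwarf against old normal serum. Of the neural list 2 of 6 were tested, miR-128-3p (log2 -1.58, edgeR adjusted p 0.129) and miR-138-5p (log2 -0.59, 0.102), and neither was called between the old groups. The liver and muscle lists lay the other way from the family there, with medians of log2 1.73 over 3 and 1.83 over 5 tested miRNAs, and 0 of each were called, where 16.1% of all miRNAs were called higher.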

How the data were processed

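Small RNA of mouse serum was sequenced in 20 libraries, made with a TruSeq small RNA kit from column-purified RNA, per the labels' protocols. Bowtie 0.12.8, bedtools, edgeR and the build GRCm38 (mm10) appear in the submitters' processing notes with no role given. The deposited table, per the file headers, has the layout of the miRDeep2 quantifier and holds whole-number read counts per mature name and precursor (2241 rows, 1915 names). It also holds RPM values made by the authors, equal to count over column sum within 0.005 RPM, which entered no test. The authors' deposited miRDeep2 report on pooled libraries was not used. No sample column was left unused (0).

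For each name the row with the highest total was used. edgeR 4.0.16 (R 4.3.3) fitted a quasi-likelihood model with 1 coefficient per group over all 20 libraries, after TMM scaling and its default filter by group (minimum count 10), which kept 360 miRNAs and at least 99.9% of reads. P-values were adjusted by Benjamini-Hochberg per comparison over all 360 miRNAs, and a miRNA with an adjusted p under 0.05 counts as called. The standard error came from dividing the log2 fold change by the square root of the F statistic. The fit was checked on simulated counts. Shares and ratios (each count plus 1) were compared with 2-sided exact permutation tests, correlations of log2 CPM (prior count 2) with 100000 permutations. The members, lists and tests were chosen with earlier results of these data known. Named were all members and 3p strands, up to 4 called miRNAs per list by smallest p, miR-451a and miR-23a-3p, and the 3 miRNAs most like each member. Values of further miRNAs (uncalled list members, and miR-155-5p) were given after they were seen. The counts also went through DESeq2 1.42.0. Amplified reads are not independent molecules. The lowest member count was 158 reads.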

Additional observations from a re-analysis of the deposited data

Results flagged for a closer look

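A library lay far from the other 4 of its group in 4 of the 40 groups of values examined, where chance gives about 1 in 20. miR-181d-5p stood at 704 CPM in young dwarf library 1, against 105 to 253 CPM in the other young dwarf libraries. In the same library the log2 ratio of miR-181b-5p to miR-181a-5p was -3.38, against -4.21 to -4.07 in the others. miR-181a-1-3p stood at 16.4 CPM in young dwarf library 2, against 10.9 to 12.3 CPM. The family took 0.248% of reads in old normal library 3, against 0.452 to 0.532% in the rest of that group.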

How the results depend on the processing

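Outside the fits that left out 1 library, member results kept their direction and side of the threshold in 203 cases, 16 turned, 11 lost their call and 1 gained it. The cause was not tested. Counts of called miRNAs were 95 in old dwarf against old normal serum, 0 in young dwarf against young normal, 2 in old dwarf against young dwarf, 56 in old normal against young normal and 2 for the difference between the age effects. All fold changes here are log2 and p-values adjusted.

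Unscaled library totals moved the median of all miRNAs to 0.23 in old dwarf against old normal, 0.18 in young dwarf against young normal, -0.38 in old dwarf against young dwarf and -0.42 in old normal against young normal serum. Under them miR-181c-5p between the old groups was 0.019, miR-181d-5p between the young groups 0.13, miR-181b-5p, miR-181c-5p and miR-181d-5p between the dwarf groups -0.37, -0.31 and -0.35, and miR-181a-5p between the normal groups 0.23 (0.570). They called 0 miRNAs between the dwarf groups, 106 between the normal groups and 0 for the difference. RLE factors moved the median to 0.06 between the old groups, and upper-quartile factors moved it to -0.11 between the old, 0.13 between the dwarf and 0.16 between the normal groups.

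miR-181a-5p between the dwarf groups, at -0.01 with TMM factors and -0.42 with unscaled totals, turned to 0.0026 with RLE factors and with DESeq2, 0.091 with upper-quartile factors, 0.014 with a minimum count of 50, 0.035 with identical names counted once, 0.028 with only the 2 groups compared and 0.034 with the replicate block. Between the normal groups its call was lost with RLE factors (0.64, 0.0632), no filter (0.59, 0.232), precursor rows summed (0.70, 0.0532), identical names counted once (0.70, 0.0544), only the 2 groups compared (0.48, 0.257), the replicate block (0.65, 0.0586) and the haemolysis index (0.49, 0.423). miR-181b-5p between the old groups lost its call with no filter (-1.03, 0.0521), the index (-0.49, 0.514) and, chosen after seeing the data, counted with miR-181d-5p (-0.98, 0.135), which brought miR-181a-5p past the threshold (-0.63, 0.0492). With no filter it was -0.036 between the dwarf groups. The index turned miR-181c-5p between the old groups (0.045), miR-181d-5p between the normal groups (-0.014) and its difference between age effects (0.026).

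Between the old groups 59 miRNAs were called with a minimum count of 50, 63 with only the 2 groups compared and 0 with the index. Between the young groups 6 were called by DESeq2, 1 with no filter and 1 with the index. Between the dwarf groups 0 were called with a minimum count of 50, with only the 2 groups compared and with the replicate block, and 1 with precursor rows summed. Between the normal groups 117 were called by DESeq2, 34 with only the 2 groups compared and 1 with the index. For the difference 20 were called by DESeq2, 13 with no filter, 1 with RLE factors and 0 with upper-quartile factors, a minimum count of 50, precursor rows summed, the replicate block and the index.

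The replicate numbers were tried as a block. Of 30 same-numbered pairs of libraries, 13 had a correlation of deviations above 0.1 (-0.68 to 0.81, median -0.01). Pairs with different numbers were not compared, so whether same-numbered libraries share more than a number was not tested. The block left 92 miRNAs called between the old groups and 38 between the normal groups.

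Leaving out 1 library at a time, the ranges between the old groups were -0.75 to -0.35 for miR-181a-5p, -1.20 to -0.97 for miR-181b-5p, -0.35 to -0.0033 for miR-181c-5p and -1.24 to -0.67 for miR-181d-5p. Between the young groups they were -0.0035 to 0.18, -0.79 to -0.07, -0.04 to 0.44 and -0.66 to 0.48 for the members in the same order. Between the dwarf groups they were -0.10 to 0.070, -0.12 to 0.31, -0.10 to 0.32 and -0.30 to 0.66. Between the normal groups they were 0.45 to 0.85, 0.42 to 1.01, 0.29 to 0.70 and 0.67 to 1.43, and for the difference -0.86 to -0.46, -0.996 to -0.28, -0.63 to -0.15 and -1.37 to -0.23. The counts ran from 51 to 143 between the old groups, 0 to 0 between the young, 0 to 2 between the dwarf, 29 to 123 between the normal groups and 0 to 3 for the difference. Between the old groups 53, 143, 55 and 51 were called without old dwarf libraries 1, 2, 4 and 5. Between the normal groups 37 were called without old normal library 1, and 123, 37 and 29 without young normal libraries 1, 3 and 5.

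Ratios and the share of miR-181b-5p passed in no fit after adjustment. Leaving out 1 library, the log2 ratio of miR-181b-5p to miR-181a-5p differed by -0.72 to -0.41 between the old, -0.70 to -0.26 between the young, 0.0071 to 0.23 between the dwarf and -0.076 to 0.36 between the normal groups. The ratio of miR-181c-5p differed by -0.022 to 0.55, -0.042 to 0.32, 0.0025 to 0.22 and -0.32 to 0.25 in the same order, and that of miR-181d-5p by -0.98 to -0.29, -0.43 to 0.22, -0.18 to 0.37 and 0.22 to 0.93. The share of miR-181b-5p differed by -1.84 to -1.44 points between the old and -2.16 to -1.01 points between the young groups. The correlation of miR-181a-5p with miR-181c-5p was -0.035 with group means removed and 0.51 without the 2 farthest libraries, and with miR-181d-5p 0.13 with group means removed. Every member had at least 158 reads in every library.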
